A study of Mus musculus with 16 samples.

Results

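Adipocytes store fat as triglyceride and secrete hormones, and the genes for both tasks were followed here in adipose progenitors, precursors in fat tissue that can turn into adipocytes. The list was fixed by gene symbol: 42 genes of fat storage and adipokine secretion, out of 38720 gene entries in the count table. All 42 were in the table and 41 passed the filter on low counts. The exception was Elovl3, a fatty acid elongase best known from brown fat, which had 0 to 13 counts in a library and was not tested.

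The study sequenced RNA of adipose progenitors from mice 4 weeks old, in 4 groups of n = 4 libraries each that cross genotype with fat depot. Wild type (WT) mice are labelled Nr4a1+/+ and knockout (KO) mice Nr4a1-/-. The labels give the strain C57BL/6J for both and the allele B6;129S2-Nr4a1tm1Jmi/J for the KO, a germline allele carried by every cell. Nr4a1 encodes an orphan nuclear receptor. The depots are subcutaneous fat (SAT) and visceral fat (VAT). Library names carry the word MACS, a magnetic cell separation; the sources at hand do not state its markers, the sex of the mice or any pooling. The replicates are called biological, but nothing says that they are separate animals, so p-values measure the spread between these libraries.

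WT SAT libraries held 34655519 to 49437944 counts and WT VAT libraries 42383156 to 46293781. KO libraries held 44181663 to 55551845 counts for SAT and 35761196 to 43984232 for VAT. Nr4a1 itself stood at 997 to 1210 CPM (counts scaled to library size, per 1e6) in WT SAT and 195 to 209 in KO SAT. In VAT it stood at 1430 to 1650 CPM in WT and 297 to 327 in KO. Reads of the gene remained in every KO library, at a level well below WT. All 12 progenitor markers checked, among them Pdgfra, Cd34 and Dcn, were detected in every library, with a summed level of 161000 to 226000 CPM in SAT and 56200 to 75700 CPM in VAT.

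As background, a fat cell builds triglyceride by adding fatty acids to glycerol 3-phosphate in successive acylation steps, packs it into a droplet coated with perilipins, and releases it again through a chain of lipases. Fatty acids come from lipoproteins, through lipoprotein lipase and fatty acid carriers, or are made from glucose. Many of these genes are induced during adipogenesis, chiefly under PPARG and C/EBPA.

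Levels below are CPM, given as mean ± SD over the 4 libraries of a group. Changes are log2 fold changes ± SE, and adjusted p is the Benjamini-Hochberg value over all 16842 tested genes of edgeR's quasi-likelihood test. A gene was called at an adjusted p under 0.05, and "rose" or "fell" is used only of called genes. These are bulk libraries, so more cells of a type and more RNA per cell cannot be told apart.

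Per kilobase of exon length, the scale on which genes can be compared, the level spanned a wide range. Lpl, which frees fatty acids from lipoproteins, had the highest mean over all libraries at 263 CPM per kb, followed by the fatty acid carrier Fabp4 at 219. Car3, a carbonic anhydrase abundant in fat cells, came next at 169 and then the fatty acid transporter Cd36 at 104 CPM per kb. At the other end stood Pck1 at 0.562, the leptin gene Lep at 0.0886 and Plin5, a perilipin of oxidative tissues, at 0.0725 CPM per kb. Lep had 3 to 32 counts in a library and Plin5 had 0 to 23, so both were measured with little depth.

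The order of levels per length differed between groups at its top. In WT SAT, Lpl stood at 339 ± 58.0 and Fabp4 at 260 ± 61.0 CPM per kb, a gap little wider than either SD. In WT VAT, Fabp4 at 206 ± 18.9 and Lpl at 183 ± 13.5 CPM per kb changed places. In KO VAT, Car3 came first at 328 ± 73.1 CPM per kb, ahead of Lpl at 246 ± 23.4 and Fabp4 at 219 ± 35.2, the last pair being closer than their SDs. In WT VAT Car3 stood behind both, at 125 ± 7.2 CPM per kb. Adipoq, the gene of the insulin-sensitizing hormone adiponectin, ranked 12th in WT VAT at 13.7 ± 2.02 CPM per kb and 8th in KO VAT at 38.7 ± 9.80.

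**Figure D1:**
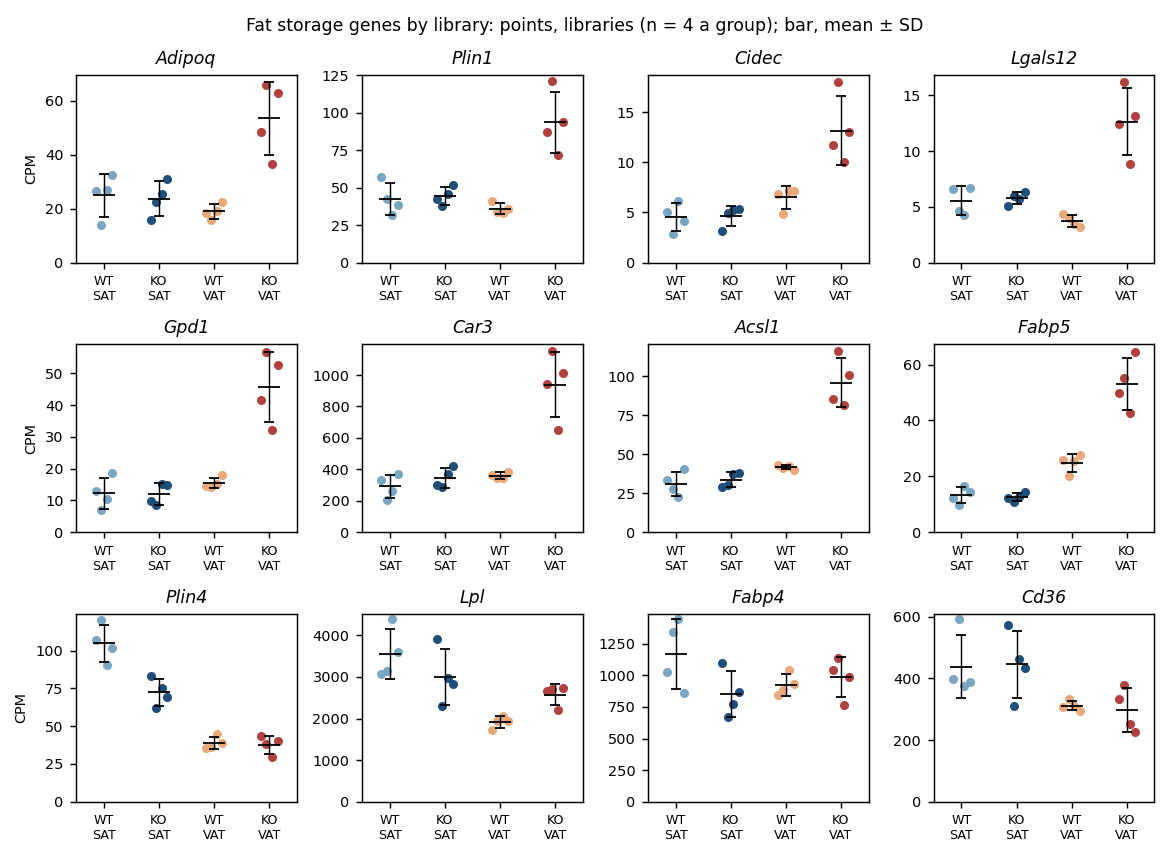
Level in CPM (linear axes from 0) of 12 fat storage genes in each of the 16 libraries, by genotype and depot; points are libraries and bars are the mean ± SD of n = 4. For the 8 genes of the upper 2 rows the KO VAT points lie above those of every other group, while Plin4, Lpl, Fabp4 and Cd36 in the lowest row do not show that pattern.

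The comparison of KO with WT in VAT asked which fat storage genes differ in visceral progenitors that lack Nr4a1. Of 41 tested members 14 rose, or 34.1%, where 2.84% of all tested genes rose. By edgeR 0 members fell, where 1.26% of all genes fell; 0 members were lower at an unadjusted p under 0.05 (7.64% of all genes), and 0 fell by DESeq2 or limma-voom. The median log2 change of the members was 0.31, beside 0 over all tested genes. The genes that rose cover adipokines, droplet proteins, triglyceride assembly, fatty acid activation and glycerol handling. Fatty acid synthesis and lipase genes were not among them.

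Markers of other cells were summed beside this result. In VAT, lymphocyte markers summed to 4.15 to 9.53 CPM for WT, against 9.49 to 28.5 for KO. None of the 6 tested lymphocyte markers was called. Brown adipocyte markers summed to 5.73 to 6.57 CPM in WT VAT, against 11.1 to 17.1 in KO, with Slc36a2 alone of 5 tested markers called; the defining brown marker Ucp1 was at 0 in 4 libraries and had at most 14 counts. The part of these cells in the result was not tested.

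Among the adipokines, 2 of 4 rose. Adipoq stood at 18.5, 15.7, 19.1 and 22.5 CPM in the WT VAT libraries and at 48.4, 65.8, 36.7 and 63 CPM in KO VAT. Every KO library exceeded every WT library, and Adipoq rose by 1.50 ± 0.24 (adjusted p = 0.00124). Retn, which encodes the hormone resistin, stood at 3.06, 2.05, 3.54 and 4.47 CPM in WT VAT and at 6.53, 10, 5.82 and 10 CPM in KO VAT. Its groups did not overlap and it rose by 1.30 ± 0.32 (adjusted p = 0.0307). Retn was not called when WT VAT replicate 1, 2 or 3 was left out, nor when KO VAT replicate 2 or 4 was (adjusted p from 0.0693 to 0.1).

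The other adipokines did not pass. Cfd, the gene of the complement protease adipsin, stood at 6.24, 6.14, 10.2 and 6.24 CPM in WT VAT and at 5.54, 6.35, 4.27 and 11.2 CPM in KO VAT. The groups overlapped fully, with a log2 change of -0.07 ± 0.32 (adjusted p = 0.944). Lep, the gene of the satiety hormone leptin, stood at 0.368, 0.311, 0.218 and 0.486 CPM in WT VAT and at 0.588, 0.198, 0.697 and 0.188 CPM in KO VAT. KO VAT replicates 1 and 3 were above the WT libraries and replicates 2 and 4 below them (0.28 ± 0.48, adjusted p = 0.839).

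Of the 10 droplet protein genes, 4 rose. Lgals12, which encodes a galectin bound to lipid droplets (chromosome 19, 7596660 to 7607193, build mm10), had the smallest p of all members. It stood at 4.38, 4.02, 3.46 and 3.17 CPM in WT VAT and at 12.4, 16.2, 8.82 and 13.1 CPM in KO VAT, with no overlap. It rose by 1.75 ± 0.18 (adjusted p = 2.86e-05), a fold of 3.36. Plin1 (chromosome 7, 79720218 to 79732903), the perilipin that gates lipolysis on adipocyte droplets, stood at 41.2, 33.8, 32.9 and 35.7 CPM in WT VAT and at 87.3, 121, 72.1 and 93.6 CPM in KO VAT. The groups lay far apart and Plin1 rose by 1.38 ± 0.17 (adjusted p = 9.52e-05).

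Adig, the gene of the small adipocyte membrane protein adipogenin (chromosome 2, 158502612 to 158508198), went from 1.19 ± 0.0936 to 3.71 ± 1.22 CPM, a rise of 1.64 ± 0.31 (adjusted p = 0.00443). Cidec, whose product drives the fusion of small droplets into large ones, stood at 6.87, 4.85, 7.18 and 7.17 CPM in WT VAT and at 11.7, 18, 10 and 13 CPM in KO VAT. The groups did not overlap, and Cidec rose by 1.01 ± 0.22 (adjusted p = 0.0155). Leaving out replicate 2 of either genotype in VAT ended the Cidec call (adjusted p from 0.0554 to 0.0592).

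The perilipins did not move as a family. Plin4, a perilipin of nascent droplets, was at 38.8 ± 4.07 CPM in WT VAT and 37.8 ± 5.95 in KO VAT (-0.04 ± 0.12, adjusted p = 0.924). Plin2 and Plin3, which coat droplets in most cell types, changed by 0.13 ± 0.14 and -0.17 ± 0.09 and were not called. Fitm2 and Bscl2 (seipin), both needed for droplets to form at the endoplasmic reticulum, gave 0.23 ± 0.12 and 0.16 ± 0.11, and Plin5 gave 0.80 ± 0.72 on few counts. None of these passed.

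Promoter stretches are shown of 3 members that rose in KO VAT. They were picked from those that hold a match, so the printed matches are no evidence of a shared motif. Only bases upstream of the annotated gene are printed. RefSeq promoters (build GRCm38.p6, 250 bases before to 50 after a start) matched 31 of the 42 members, with 41 promoters. They were searched on both strands within the 250 bases before the start for the Nr4a1 monomer site AAAGGTCA, for the PPAR direct repeat (2 copies of AGGTCA with 1 base between), for the C/EBP letters TTGCNNAA and for AGGTCA alone, a stretch that lies within the first pair. Capitals mark the C/EBP match in Plin1 and the AGGTCA match, on the reverse strand in Aqp7 (TGACCT), in the others. The stretches are Plin1 chr7:79732904-79733026 (minus strand), Adig chr2:158502362-158502611 (plus strand) and Aqp7 chr4:41048140-41048212 (minus strand).
Plin1: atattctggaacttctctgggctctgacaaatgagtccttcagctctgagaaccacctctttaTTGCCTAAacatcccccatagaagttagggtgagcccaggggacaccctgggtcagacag
Adig: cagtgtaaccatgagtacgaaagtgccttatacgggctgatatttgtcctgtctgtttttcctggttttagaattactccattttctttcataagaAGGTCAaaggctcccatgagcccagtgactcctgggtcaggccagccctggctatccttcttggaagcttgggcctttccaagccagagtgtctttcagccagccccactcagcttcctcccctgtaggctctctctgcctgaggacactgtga
Aqp7: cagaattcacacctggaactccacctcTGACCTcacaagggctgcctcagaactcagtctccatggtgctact
The Nr4a1 monomer site was in 0 of the 31 matched members, beside 1.55% of all genes in the table, and the PPAR repeat in 0, beside 0.0407%. The C/EBP letters were in 3 members (Cidec, Lep and Plin1), or 9.68%, beside 10.8% of all genes. AGGTCA was in 11 members, or 35.5%, beside 15.8% of all genes; counted per promoter it was in 29.3% of the members' 41 promoters and 14.0% of all. The members with AGGTCA were Abhd5, Acly, Adig, Aqp7, Bscl2, Cd36, Elovl6, Gpam, Lpin1, Plin2 and Plin5, of which Adig and Aqp7 rose in KO VAT. Lgals12, Dgat1, Dgat2, Fabp5, Gpd1 and Car3 also rose there but had no matched promoter and were not searched. A match is only a run of letters, and the AGGTCA search alone was added after the other values were seen.

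Triglyceride assembly rose at 3 of 5 genes. Agpat2, the enzyme of the second acylation, went from 18.9 ± 1.73 to 29.5 ± 4.11 CPM (0.64 ± 0.11, adjusted p = 0.00264); its libraries read 18.9, 18.1, 17.3 and 21.3 CPM in WT VAT and 25.5, 33.3, 26.5 and 32.8 CPM in KO VAT. Both enzymes of the last acylation rose as well. Dgat2 stood at 18.4, 15.8, 14.7 and 15.5 CPM in WT VAT and at 21.4, 40.5, 27.5 and 32.9 CPM in KO VAT, without overlap, and gained 0.92 ± 0.17 (adjusted p = 0.0047), and Dgat1, on the chromosome of Nr4a1 but 24.8 Mb from it, gained 0.52 ± 0.12 (adjusted p = 0.0171). Leaving out WT VAT replicate 3 or KO VAT replicate 2 ended the Dgat1 call (adjusted p from 0.0619 to 0.0646). Gpam, the enzyme of the first acylation, and Lpin1, the phosphatidate phosphatase, were at 0.28 ± 0.25 and 0.14 ± 0.10 and did not pass.

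Fatty acid uptake and activation split into genes that rose and genes that did not. Acsl1, which couples long-chain fatty acids to coenzyme A, stood at 42.8, 41.2, 42.5 and 40 CPM in WT VAT and at 85.3, 116, 81.4 and 101 CPM in KO VAT. The KO libraries were all about as high again as WT or more, a rise of 1.20 ± 0.15 (adjusted p = 0.000104). The carrier gene Fabp5 stood at 25.7, 20.2, 25.3 and 27.5 CPM in WT VAT and at 49.9, 55.3, 42.5 and 64.6 CPM in KO VAT, again without overlap (1.10 ± 0.15, adjusted p = 0.000265). Fabp5 has near-identical copies elsewhere in the genome, and no source at hand says how the authors counted such reads, so its level is uncertain.

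The most abundant uptake genes were not called. Lpl stood at 1720, 1940, 2060 and 1930 CPM in WT VAT and at 2650, 2710, 2210 and 2730 CPM in KO VAT. The groups did not overlap, but the change of 0.43 ± 0.14 missed the threshold (adjusted p = 0.112), while DESeq2 and a fit of the VAT libraries alone called it at adjusted p as low as 0.0224. Fabp4, a neighbour of Fabp5 on chromosome 3, stood at 843, 885, 1040 and 930 CPM in WT VAT and at 1040, 1140, 766 and 989 CPM in KO VAT (0.09 ± 0.17, adjusted p = 0.857). Cd36 stood at 308, 332, 312 and 295 CPM in WT VAT and at 333, 380, 253 and 225 CPM in KO VAT (-0.07 ± 0.19, adjusted p = 0.905). For both, KO libraries fell on either side of the WT range.

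In glucose and glycerol handling, 2 of 4 genes rose. Gpd1, which makes glycerol 3-phosphate for triglyceride, stood at 14.6, 14.2, 15.1 and 17.9 CPM in WT VAT and at 41.6, 56.6, 32.2 and 52.5 CPM in KO VAT. The groups did not overlap and Gpd1 rose by 1.56 ± 0.25 (adjusted p = 0.00123). It lies on chromosome 15 at 99717515 to 99725005, 1.54 Mb from Nr4a1, which places it near the altered locus. The glycerol channel gene Aqp7 rose by 1.24 ± 0.23 (adjusted p = 0.0044), from 3.14 ± 0.839 to 7.44 ± 1.27 CPM. Slc2a4, the insulin-responsive glucose transporter, was at 41.1 ± 0.559 CPM in WT VAT and 39.6 ± 6.51 in KO VAT (-0.05 ± 0.13), and Pck1, the enzyme of glyceroneogenesis, gave 0.33 ± 0.36. Neither passed.

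Car3 rose from 365, 343, 343 and 386 CPM in WT VAT to 946, 1150, 653 and 1010 CPM in KO VAT. The lowest KO library stood well above the highest WT library, with a change of 1.39 ± 0.18 (adjusted p = 0.000174).

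All 5 lipase and cofactor genes had positive changes, between 0.14 and 0.48, but 0 were called by edgeR and 2 had an unadjusted p under 0.05. Lipe, the hormone-sensitive lipase, had the smallest p of them, at 30.5 ± 2.37 CPM in WT VAT and 42.5 ± 9.78 in KO VAT (0.48 ± 0.14, adjusted p = 0.0615). KO VAT replicate 3, at 28.6 CPM, lay inside the WT range. Of the 7 tested fatty acid synthesis genes 0 were called by edgeR and 1 had an unadjusted p under 0.05, with changes between -0.08 and 0.36. The largest was Fasn, the fatty acid synthase, at 108 ± 4.63 CPM in WT VAT and 138 ± 19.3 in KO VAT (0.36 ± 0.10, adjusted p = 0.0577). Its groups did not overlap. Acly, Acaca, Acacb, Me1, Elovl6 and Scd1, the genes that supply or modify its substrates and products, lay between -0.08 and 0.13.

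**Figure D2:**
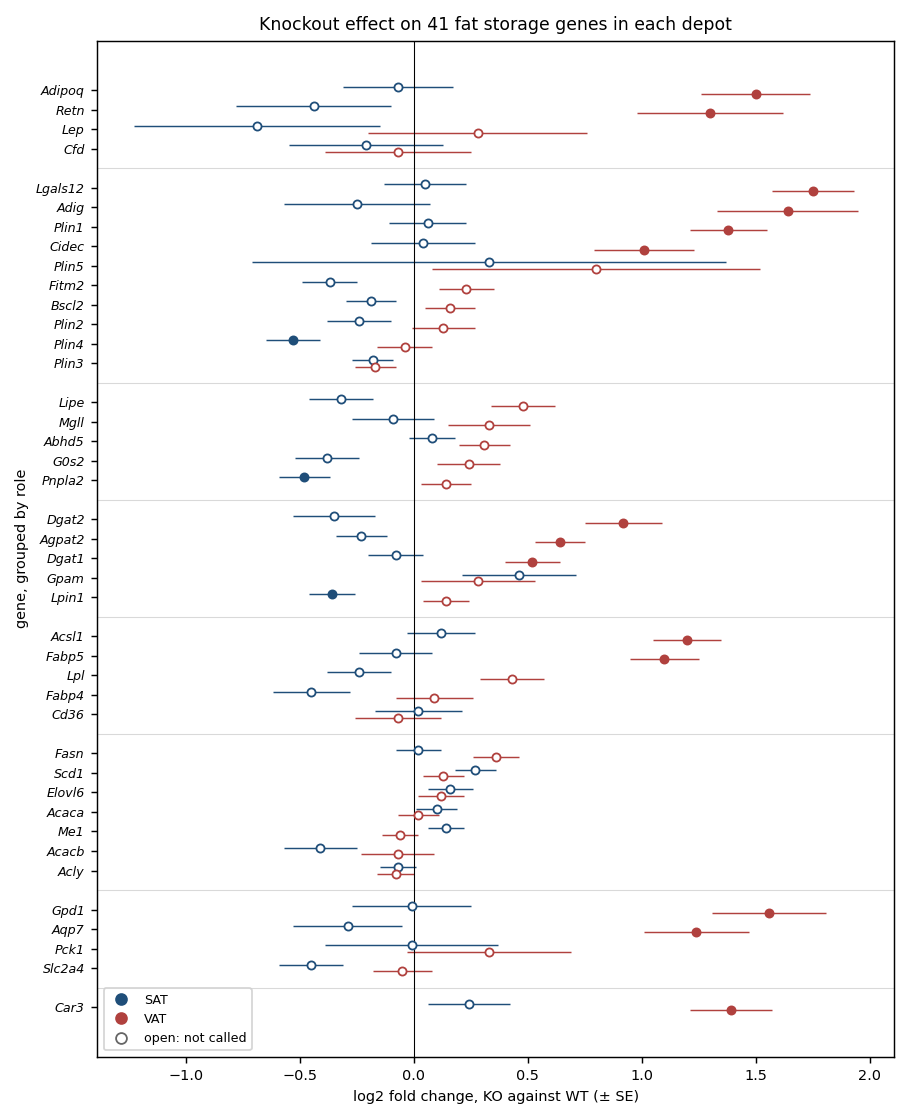
Log2 fold change of KO against WT (± SE, n = 4 libraries a group) for the 41 tested genes, grouped by role, in SAT (blue) and VAT (red); filled points are called at adjusted p under 0.05. In VAT 14 filled points lie right of 0, up to 1.75, and in SAT 3 lie left of it, down to -0.53.

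In SAT the same comparison gave few calls, and they went the other way. By edgeR 0 of 41 members rose, where 3.46% of all tested genes did, and 3 fell, or 7.32%, where 2.43% of all genes fell. At an unadjusted p under 0.05, 1 member was higher (10.6% of all genes) and 9 were lower (11.9% of all genes); DESeq2 and limma-voom called 0 higher. The median log2 change was -0.09, beside -0.01 over all genes.

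Markers of other cells also differed between the SAT groups. Summed progenitor markers were at 161000 to 186000 CPM in WT, against 190000 to 226000 in KO, without overlap, and Lum was the only one of 12 called higher (0.36 ± 0.10, adjusted p = 0.0417). Among 10 pericyte and smooth muscle markers Tagln fell (-0.56 ± 0.16, adjusted p = 0.0487), and among 13 macrophage markers Trem2 fell (-1.26 ± 0.33, 0.0318). Kdr rose among 11 endothelial markers (0.95 ± 0.24, 0.0248), Slc36a2 among 5 brown adipocyte markers and Igj among 6 lymphocyte markers. Their part in the SAT result was not tested.

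The 3 genes that fell belong to droplets, lipolysis and triglyceride assembly. Plin4 stood at 107, 120, 90.3 and 102 CPM in WT SAT and at 83.5, 62.3, 75 and 69.6 CPM in KO SAT. The groups did not overlap and Plin4 fell by 0.53 ± 0.12 on the log2 scale (adjusted p = 0.0141). Pnpla2, the lipase of the first step of triglyceride breakdown, stood at 125, 149, 129 and 102 CPM in WT SAT and at 101, 84.2, 85.2 and 90.3 CPM in KO SAT. WT SAT replicate 4 and KO SAT replicate 1 nearly met, and Pnpla2 fell by 0.48 ± 0.11 (adjusted p = 0.0191). Lpin1 stood at 38.6, 39.4, 43 and 36.8 CPM in WT SAT and at 31.2, 26.7, 33 and 31.5 CPM in KO SAT, again without overlap (a fall of 0.36 ± 0.10, adjusted p = 0.034).

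Each of these calls depended on single libraries. Leaving out KO SAT replicate 2 or 4 ended all 3 calls, for Plin4 at adjusted p from 0.0556 to 0.0573. KO SAT replicate 3 and WT SAT replicate 2 each did so for Pnpla2 (0.0542 to 0.0664 over its 4 losses). For Lpin1, KO SAT replicate 1 and each of WT SAT replicates 1, 2 and 3 did so (0.0546 to 0.117 over its 6 losses). Without WT SAT replicate 4 the count of members that fell was 5. A fit of the SAT libraries alone called only Plin4.

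The genes that rose in VAT had SAT changes near 0 in most cases. Adipoq stood at 26.5, 13.8, 27 and 32.4 CPM in WT SAT and at 15.9, 22.3, 25.6 and 31.1 CPM in KO SAT (-0.07 ± 0.24, adjusted p = 0.893). Plin1 stood at 57.3, 42.6, 31.9 and 38.5 CPM in WT SAT and at 42.6, 37.5, 46 and 51.7 CPM in KO SAT (0.06 ± 0.17, adjusted p = 0.864). Cidec stood at 5.09, 2.86, 6.14 and 4.17 CPM in WT SAT and at 3.14, 4.9, 5.28 and 5.3 CPM in KO SAT (0.04 ± 0.23, adjusted p = 0.95). For all 3, the ranges of WT and KO largely coincided, and the sign changed when a single library was left out.

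Car3 stood at 334, 205, 261 and 367 CPM in WT SAT and at 301, 290, 369 and 422 CPM in KO SAT (0.24 ± 0.18, adjusted p = 0.435). Retn stood at 2.12, 1.61, 5.14 and 2.43 CPM in WT SAT and at 1.39, 1.68, 2.14 and 2.96 CPM in KO SAT, with WT SAT replicate 3 above the rest (-0.44 ± 0.34, adjusted p = 0.466). Cfd stood at 3.52, 3.65, 6.54 and 3.3 CPM in WT SAT and at 3.43, 4.01, 1.75 and 5.38 CPM in KO SAT (-0.21 ± 0.34, adjusted p = 0.751). The groups of these genes overlapped. Lep stood at 0.251, 0.281, 0.133 and 0.377 CPM in WT SAT and at 0.072, 0.207, 0.276 and 0.102 CPM in KO SAT (-0.69 ± 0.54, adjusted p = 0.471), too few counts to separate the groups.

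The abundant uptake genes overlapped between the genotypes as well. Fabp4 stood at 1030, 1340, 1450 and 857 CPM in WT SAT and at 1100, 673, 773 and 868 CPM in KO SAT (-0.45 ± 0.17, adjusted p = 0.128). Without WT SAT replicate 4, the lowest WT library, the adjusted p of Fabp4 was 0.0498. Lpl stood at 3070, 3140, 4390 and 3600 CPM in WT SAT and at 3910, 2300, 2980 and 2820 CPM in KO SAT (-0.24 ± 0.14, adjusted p = 0.329). Cd36 stood at 399, 592, 376 and 387 CPM in WT SAT and at 574, 312, 463 and 433 CPM in KO SAT (0.02 ± 0.19, adjusted p = 0.959). Each gene had at least 1 KO library inside the WT range.

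Among the remaining roles, Slc2a4 had the smallest p of the transport genes in SAT (-0.45 ± 0.14, adjusted p = 0.0607) and Scd1, which makes monounsaturated fatty acids, of the synthesis genes. Scd1 stood at 133 ± 6.01 CPM in WT SAT and 160 ± 14.9 in KO SAT, with no overlap and a change of 0.27 ± 0.09 that did not pass (adjusted p = 0.098). The droplet gene Fitm2, the Pnpla2 inhibitor G0s2 and the mitochondrial carboxylase Acacb gave -0.37 ± 0.12, -0.38 ± 0.14 and -0.41 ± 0.16 and were not called.

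Whether the KO effect differed between depots was tested directly, as the KO effect in VAT minus that in SAT. Of 41 members 6 had a higher effect in VAT, or 14.6%, where 0.131% of all tested genes did. By edgeR 0 had a lower one (0.137% of all genes); at an unadjusted p under 0.05 there were 24 higher (7.85% of all genes) and 0 lower (8.14%), and DESeq2 and limma-voom called 0 lower. The difference was positive for 34 of 41 members, with a median of 0.54 beside 0.03 over all genes.

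The 6 genes lie in droplet coating, fatty acid handling and triglyceride assembly. Lgals12 differed by 1.70 ± 0.26 (adjusted p = 0.0141), with SAT levels of 6.62, 4.62, 4.3 and 6.72 CPM in WT and 5.04, 6.01, 5.7 and 6.33 in KO. Plin1 differed by 1.32 ± 0.24 (adjusted p = 0.0292). Fabp5 differed by 1.19 ± 0.22 (adjusted p = 0.0333), with SAT levels of 12.2, 9.87, 16.6 and 14.5 CPM in WT and 12.2, 10.7, 12.7 and 14.4 in KO. In SAT the genotypes of these genes overlapped, and in VAT they did not.

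Agpat2 differed by 0.87 ± 0.16 (adjusted p = 0.0345), with SAT levels of 22.5, 17.1, 22.9 and 20.2 CPM in WT and 15.4, 17.4, 18.6 and 19.3 in KO. Acsl1 differed by 1.08 ± 0.21 (adjusted p = 0.0407), with SAT levels of 33.4, 27.5, 22.8 and 40.3 CPM in WT and 28.7, 30.5, 37.6 and 38.2 in KO. Dgat2 differed by 1.27 ± 0.25 (adjusted p = 0.041), from 19.4, 14.7, 15.4 and 19.2 CPM in WT SAT and 11.8, 10.6, 17.2 and 14.4 in KO SAT. The fitted SAT change was below 0 for Agpat2, Dgat2 and Fabp5 and was not called for any of the 6.

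Adipoq (1.57 ± 0.34, adjusted p = 0.0626), Aqp7 (1.54 ± 0.33, 0.0626) and Car3 (1.14 ± 0.25, 0.0684) came next and were not called. In the lipases, Lipe had the smallest p (0.80 ± 0.20, adjusted p = 0.083), and in fatty acid synthesis Fasn (0.33 ± 0.14, adjusted p = 0.271). The effect of the knockout was therefore shown to differ between depots for 6 members and not for the other 8 that rose in VAT.

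DESeq2 called 18 members in place of 6, Adipoq, Retn, Car3 and Lpl among them. The count of 6 also moved with single libraries. It was 1 without KO SAT replicate 1, 2 or 4, KO VAT replicate 2 or 4, WT VAT replicate 3, or WT SAT replicate 1 or 4. It was 2 without KO SAT replicate 3 or WT VAT replicate 1, 3 without WT VAT replicate 4, 10 without WT SAT replicate 2 and 14 without KO VAT replicate 3. Lgals12 was called with every library left out in turn. The other 5 lost their calls without at least 10 of the 16 libraries, at adjusted p from 0.0527 to 0.0993.

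Between depots in WT, the question was how visceral and subcutaneous progenitors differ in these genes when Nr4a1 is present. Of 41 members 5 were higher in VAT, or 12.2%, beside 19.1% of all tested genes, and 8 were lower, or 19.5%, beside 17.6%. These shares lie near those of all genes. The median change was 0 for the members and 0 for all genes. Without KO VAT replicate 3, which enters the shared spread, 8 members were higher. Mesothelial markers were at 834 to 1620 CPM in VAT and at 6.7 to 12.2 in SAT, with 10 of 10 called higher in VAT in both genotypes, and 9 of 12 progenitor markers were lower in VAT in both. The part of these cells in the depot differences was not tested.

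The genes lower in WT VAT are led by Plin4, which stood at 35.6, 36.2, 44.5 and 39 CPM there against 90.3 to 120 CPM in WT SAT. Plin4 was lower by a log2 change of -1.44 ± 0.12 (adjusted p = 6.49e-08), with no overlap. Lpl was lower by -0.89 ± 0.14 (adjusted p = 9.76e-05), its highest VAT library at 2060 CPM and its lowest SAT library at 3070. Mgll, the lipase of the last step, stood at 144, 131, 224 and 115 CPM in WT SAT and at 69.1, 71.4, 84.5 and 80.9 CPM in WT VAT (-1.01 ± 0.18, adjusted p = 0.000341). No VAT library of Mgll reached the SAT range.

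Fitm2 stood at 40.1, 43, 37.2 and 40.3 CPM in WT SAT and at 24.4, 24.7, 27.3 and 25.1 CPM in WT VAT (-0.66 ± 0.12, adjusted p = 0.000388). Abhd5, the activator of Pnpla2, stood at 53, 46.2, 38.6 and 48.7 CPM in WT SAT and at 37.5, 37.8, 32.6 and 32.1 CPM in WT VAT (-0.41 ± 0.11, adjusted p = 0.00496). Neither gene's depots overlapped. Plin2, Lgals12 and Cd36 were also lower, by -0.45 ± 0.14, -0.57 ± 0.19 and -0.49 ± 0.19. Plin2 lost its call without WT VAT replicate 1 (adjusted p = 0.0532), Lgals12 without WT SAT replicate 1 or 4 or WT VAT replicate 3 or 4 (up to 0.0775), and Cd36 without any of 10 libraries (up to 0.147).

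The genes higher in WT VAT included the lipolysis inhibitor G0s2 and the first acylation enzyme Gpam. G0s2 stood at 41.7, 32.8, 57.7 and 44.6 CPM in WT SAT and at 67.3, 77.4, 78.7 and 85 CPM in WT VAT (0.80 ± 0.14, adjusted p = 0.00025). Gpam stood at 27, 24.5, 9.74 and 27.7 CPM in WT SAT and at 51.9, 51.2, 38.6 and 36.8 CPM in WT VAT (1 ± 0.25, adjusted p = 0.00454). In both the depots lay apart, with WT SAT replicate 3 low for Gpam. Fabp5 (0.90 ± 0.15), Acsl1 (0.42 ± 0.15) and Scd1 (0.28 ± 0.09) were higher too. Acsl1 lost its call without any WT VAT replicate or without WT SAT replicate 2 or 3 (adjusted p from 0.0501 to 0.106), and Scd1 without WT SAT replicate 3 or WT VAT replicate 1 or 2 (0.0517 to 0.0614).

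The defining secreted and droplet products of adipocytes were not called between WT depots. Adipoq gave -0.40 ± 0.24 (adjusted p = 0.215), Cidec 0.52 ± 0.23 (0.0895) and Cfd 0.77 ± 0.33 (0.0799). Adipoq was called lower in WT VAT without WT SAT replicate 2 (adjusted p = 0.03), the library in which it was lowest. Fabp4 was called lower without WT SAT replicate 4 (0.0395). Cidec passed without WT SAT replicate 3 (0.0317), and Cfd without WT SAT replicate 3 or KO VAT replicate 4 (0.0235 to 0.0487) and in a fit of the WT libraries alone (0.041).

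In KO progenitors the depot difference covered more of the list. Of 41 members 24 were higher in VAT, or 58.5%, beside 23.3% of all tested genes, and 3 were lower, or 7.32%, beside 20% of all genes. The median change was 0.74, beside 0.02 over all genes. This comparison shares its KO VAT libraries with the KO effect in VAT, so the same libraries enter both.

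All 4 adipokines and all 5 triglyceride assembly genes were higher in KO VAT than in KO SAT. By p, Fabp5 came first with 2.08 ± 0.16 (adjusted p = 1.26e-08) and Acsl1 next with 1.50 ± 0.15 (adjusted p = 3.84e-07). G0s2 stood at 29.9, 33, 33.6 and 38.8 CPM in KO SAT and at 80.1, 99, 78.1 and 106 CPM in KO VAT (1.43 ± 0.14, adjusted p = 4.64e-07). Lipe stood at 19.7, 18.4, 17.3 and 22.7 CPM in KO SAT and at 43, 47.9, 28.6 and 50.6 CPM in KO VAT (1.12 ± 0.14, adjusted p = 4.95e-06). Every KO VAT library of G0s2 and Lipe was above every KO SAT library.

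Car3 gave 1.44 ± 0.18 (adjusted p = 5.58e-06) and Dgat2 1.18 ± 0.18 (adjusted p = 3.53e-05). Gpd1 went from 9.91, 8.42, 15.3 and 14.9 CPM in KO SAT to its KO VAT levels of 32.2 CPM or more (1.91 ± 0.26, adjusted p = 1.09e-05). Fasn was the only synthesis gene called, at 0.34 ± 0.10 (adjusted p = 0.0109), and it lost its call without KO VAT replicate 2 (0.0508). Leaving out that library also ended the calls of Gpam (0.0519) and Mgll (0.0522).

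The 3 members lower in KO VAT were Plin4, at 43.2, 38.1, 29.5 and 40.5 CPM there against 62.3 CPM or more in KO SAT (-0.94 ± 0.12, adjusted p = 6.76e-06), Mgll (-0.59 ± 0.18, 0.0148) and Cd36 (-0.58 ± 0.19, 0.0172), all lower in WT VAT as well. Cd36 lost its call without KO SAT replicate 1 or KO VAT replicate 3 or 4 (0.055 to 0.0749). The calls of the low-count genes were loose: Lep (1.35 ± 0.52, adjusted p = 0.0458) lost it without any of 12 libraries, Plin5 (2.22 ± 0.83, 0.0398) without any of 7, and Cfd (0.90 ± 0.33, 0.0361) without KO SAT replicate 1, 2 or 3 or KO VAT replicate 2 or 4, at adjusted p up to 0.169, 0.123 and 0.179.

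**Figure D3:**
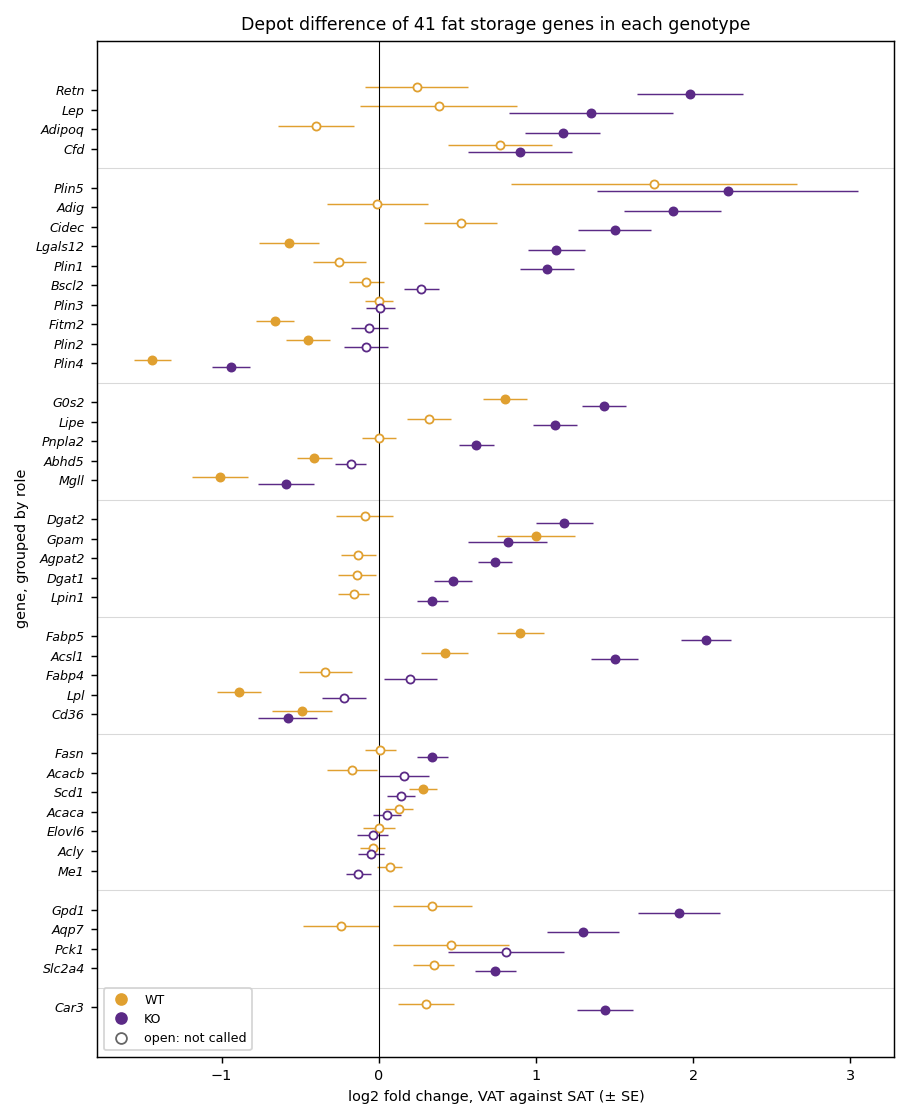
Log2 fold change of VAT against SAT (± SE, n = 4 libraries a group) for the 41 tested genes, grouped by role, in WT (orange) and KO (purple); filled points are called at adjusted p under 0.05. In WT 5 filled points lie right of 0 and 8 left; in KO 24 lie right and 3 left.

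Libraries of the same group also differed from each other. The ranks and median deviations below were taken over the members only. Whether other genes shifted alike in these libraries was not tested, so the shifts are not shown to be particular to this list. In KO VAT, replicate 2 held the highest value of its group for 26 of 41 members and replicate 3 the lowest for 30, with median deviations from the group mean of 0.23 and -0.22 on the log2 scale. Adipoq deviated in the same direction in these libraries, by 0.34 and -0.50. Summed macrophage markers ran the other way, at 42.4 CPM in KO VAT replicate 2, the lowest of the group, and 72.9 in replicate 3, the highest. Replicate 3 was also highest for mesothelial markers, at 1590 CPM against 834 to 1140 in the others. The same held for endothelial (120 against 101 to 107), erythroid (151 against 65 to 86.2) and lymphocyte markers (28.5 against 9.49 to 22.4). It was lowest for pericyte and smooth muscle markers (5280 against 5850 to 6660) and brown adipocyte markers (11.1 against 13 to 17.1). For progenitor, epithelial, skeletal muscle and Schwann cell markers it was at neither end. The part of these cells in the shift of the members was not tested. In WT VAT no replicate held the highest value for more than 13 members or the lowest for more than 13, and median deviations stayed between -0.02 and 0.02. In SAT the median deviations ran from -0.15 in WT SAT replicate 2, where Adipoq lay 0.78 below its mean, to 0.11 in KO SAT replicate 4.

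**Figure D4:**
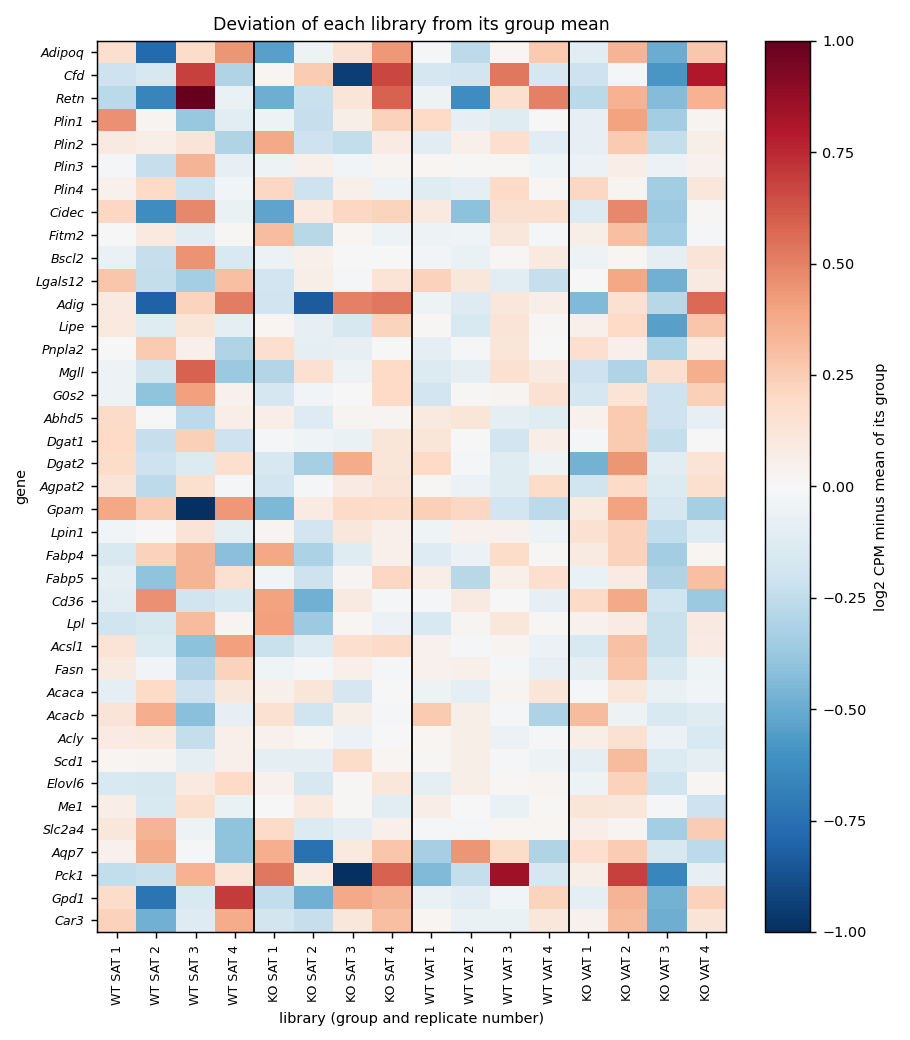
Deviation of log2 CPM from the group mean (colour, red above and blue below) for 39 of the 41 tested genes in each of the 16 libraries; Lep and Plin5 are left out for their low counts. KO VAT replicate 3 is mostly blue and replicate 2 mostly red, while the WT VAT columns are pale.

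The covariation of each gene with Adipoq inside the groups was tested over all 16841 other genes, as a slope of log2 level on the Adipoq deviation with group as a covariate. Of 40 members 1 was called with Adipoq, or 2.5%, beside 0.0178% of all genes, and 0 against it, beside 0% of all genes. At an unadjusted p under 0.05, 13 members went with it, beside 1.26% of all genes, and 0 against it, beside 2.43%. Slopes were positive for 28 of 40 members, with a median of 0.17 beside 0 over all genes.

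The member called was Gpd1, with a slope of 0.91 ± 0.14 (adjusted p = 0.0462). Of all genes only 2 had a smaller p, Slc25a10, the mitochondrial dicarboxylate carrier (0.51 ± 0.07), and Adrb3, the adipocyte beta-adrenergic receptor (0.94 ± 0.12), both at adjusted p = 0.00994. These are the genes most like Adipoq in their variation over the 16 libraries by this test. Car3 came next with 0.63 ± 0.10 (adjusted p = 0.0585) and was not called. Cidec (0.77 ± 0.16, adjusted p = 0.478), Fabp5, Agpat2, G0s2, Retn and Adig had positive slopes at unadjusted p from 0.00017 to 0.00118 and were not called.

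The Gpd1 call held without KO SAT replicate 1 or 2 or WT SAT replicate 3, and each of the other 13 libraries ended it when left out. Without WT SAT replicate 3, Car3 was called too, which made 2 members. With Plin1 in place of Adipoq, 0 members were called. Plin1 itself had a slope of 0.23 ± 0.16 on Adipoq (adjusted p = 0.973), and Cd36, Aqp7 and Fabp4 had slopes of -0.31 ± 0.17, -0.29 ± 0.23 and -0.13 ± 0.17. Gpd1 alone was thus called to vary with Adipoq inside groups, and that call depended on single libraries. No slope was called for the other members, among them Lpl at 0.03 ± 0.15. Slopes of the markers of other cells differed by list. The median was -1.22 over 13 macrophage and myeloid markers, with Lyz2 at -1.22 ± 0.27 (adjusted p = 0.625), and -0.90 over 5 erythroid markers. It was 0.56 over 10 skeletal muscle markers. Medians of the remaining lists of other cells lay between -0.31 (pericytes and smooth muscle) and 0.06 (brown adipocytes). None of these markers was called, and their part in the members' slopes was not tested.

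**Figure D5:**
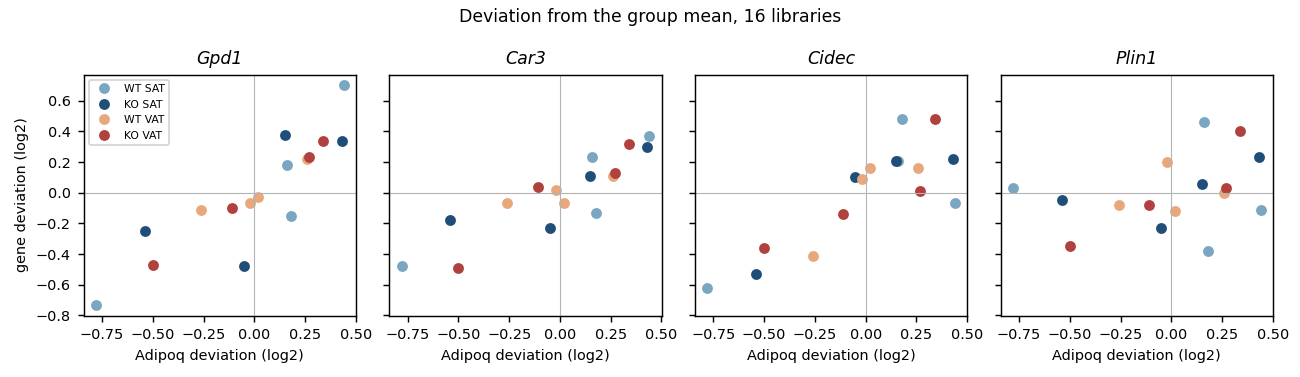
Deviation of Gpd1, Car3, Cidec and Plin1 from the group mean (y, log2 CPM) against that of Adipoq (x, log2 CPM) in 16 libraries, coloured by group. The fitted slopes were 0.91 for Gpd1, 0.63 for Car3, 0.77 for Cidec and 0.23 for Plin1, and only that of Gpd1 was called.

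Regulators and partners of the storage genes were read from lists fixed with the design. For scale, 2.84% of all tested genes rose and 1.26% fell in KO VAT, and 3.46% rose and 2.43% fell in KO SAT. Of 26 adipogenic regulators, 3 rose and 2 fell in KO VAT. Mlxipl, which drives lipogenic genes in response to glucose, went from 2.17 to 5.10 CPM (1.23 ± 0.20, adjusted p = 0.00126), and Cebpa, a master regulator of adipocyte genes, from 59.4 to 89.0 CPM (0.58 ± 0.13, 0.0152). Klf15, a factor of late adipogenesis, fell by 0.61 ± 0.09 in VAT (adjusted p = 0.000698) and by 0.84 ± 0.09 in SAT (7e-05). In SAT 5 regulators fell by edgeR, with Cebpd (-0.75 ± 0.13, 0.00302) and Klf9 (-0.62 ± 0.14, 0.0171) next to Klf15 in p. The early factor Cebpd fell in VAT too (-0.55 ± 0.13, 0.027).

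Of 31 tested further triglyceride and fatty acid genes, 4 rose and 1 fell in KO VAT. Pnpla3, a lipase-like protein of droplets, went from 4.27 to 9.32 CPM (1.13 ± 0.15, adjusted p = 0.000208) and also differed between depots in its KO effect (1.40 ± 0.22, 0.0159). Agpat9, an acyltransferase of the first step, rose by 0.91 ± 0.14 (0.000657) and Thrsp, a cofactor of lipogenesis, by 1.26 ± 0.24 (0.00475). In SAT 1 rose, Elovl5, and 0 fell. Of 21 hormone receptors and signalling genes, 6 rose and 1 fell in KO VAT: Adrb3 went from 6.42 to 18.8 CPM (1.55 ± 0.24, 0.000947), the nicotinic acid receptor gene Niacr1 from 1.07 to 3.54 CPM (1.72 ± 0.31, 0.00284) and the adiponectin receptor gene Adipor2 from 79.2 to 105 CPM (0.41 ± 0.08, 0.0047). In SAT 0 were called. Of 20 fatty acid oxidation genes 0 were called in KO VAT, where Acadl had the smallest p (-0.25 ± 0.08, 0.0925), and 1 fell in SAT, Acadl (-0.31 ± 0.08, 0.0278).

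Between depots the same lists moved in both directions. Beside their counts, 19.1% of all tested genes were higher and 17.6% lower in WT VAT than in WT SAT. In KO these shares were 23.3% and 20%. In WT VAT 2 of 26 regulators were higher and 11 lower, with Ebf1 smallest in p (-0.84 ± 0.12, adjusted p = 4.05e-05), and among the signalling genes 4 of 21 were higher and 5 lower, with Mrap, a melanocortin receptor cofactor, smallest in p (2.24 ± 0.17). Of the further triglyceride and fatty acid genes 8 of 31 were higher and 7 lower, and of the oxidation genes 2 of 20 were higher and 4 lower. In KO VAT 9 regulators were higher and 8 lower, 9 signalling genes were higher and 3 lower, 10 triglyceride and fatty acid genes were higher and 9 lower, and 1 oxidation gene was higher and 3 lower.

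Markers of other cell types were summed in each library to show what else the libraries held. The 7 defining adipocyte markers (Adipoq, Plin1, Cidec, Lep, Retn, Slc2a4 and Adig) are all members, so their sum is no separate evidence. It was 98.7 to 113 CPM in WT VAT, against 159 to 259 in KO. In SAT it was 102 to 127 CPM for WT, against 88.6 to 117 for KO. None of the 7 was at 0 in any library. In KO VAT 5 of the 7 rose, and Lep and Slc2a4 did not.

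In VAT, endothelial markers summed to 130 to 138 CPM for WT, against 101 to 120 for KO. That sum rests largely on Tek, at a mean of 148 CPM over all libraries, with Kdr next at 20.8. The median log2 change of the 11 tested endothelial markers was 0.28, opposite to the sum. Epithelial markers summed to 52.1 to 92.8 CPM for WT, against 41.7 to 123 for KO. None of the 11 and 7 tested markers of these lists was called there. Progenitor markers summed to 56200 to 67100 CPM in WT VAT, with 62800 to 75700 in KO, and none of 12 was called between these groups. What part these cells have in the changes of the fat storage genes was not tested.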

How the data were processed

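RNA of adipose progenitors was sequenced in 16 libraries, 4 in each group. The labels name the RNeasy Micro kit for the RNA, the NEBNext Ultra kit for the libraries, which keeps no strand, and single reads from a NextSeq. The authors deposited a table of whole-number counts per gene symbol and library, and these counts were used as they stand. Their table of normalized values was not used. The tools named per the submitters' processing notes are STAR, FastQC, featureCounts and DESeq, and the build is mm10; no version, annotation or handling of reads with several matches is stated there.

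Genes were kept by filterByExpr, which left 16842, libraries were scaled by TMM, and edgeR 4.0.16 (R 4.3.3) fitted 1 quasi-likelihood model of the 16 libraries with a coefficient for each group (12 residual degrees of freedom). Contrasts compared KO with WT in each depot, VAT with SAT in each genotype, and the KO effects of the depots. Covariation was tested in the same model with the Adipoq deviation from its group mean (log2 CPM, prior count 1) added. Adjusted p-values are Benjamini-Hochberg values over all tested genes, and SE is the absolute log2 change divided by the square root of F. Scripts were tested on simulated data. Gene positions and exon lengths came from GENCODE (GRCm38) and promoters from RefSeq.

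Genes and lists were chosen with earlier results of these data known. Values in every library are given for Adipoq, Plin1, Cidec, Lep, Retn, Car3, Cfd, Fabp4, Lpl and Cd36 and for up to 8 called members with the smallest adjusted p of a comparison. In each role the member with the smallest p is named, and in each further list the 3 genes with the smallest p may be, and other genes were named after their values were seen. Alternatives were DESeq2 1.42.0, limma-voom (limma 3.58.1), other size factors, no filter, fewer libraries and the replicate number as a block. With 4 libraries a group, small changes of genes with few counts are not resolved.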

Additional observations from a re-analysis of the deposited data

Results flagged for a closer look

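For 6 members the knockout effect differed between the depots by a test of the difference itself (KO effect in VAT minus that in SAT, log2): Lgals12 by 1.70, Plin1 by 1.32, Dgat2 by 1.27, Fabp5 by 1.19, Acsl1 by 1.08 and Agpat2 by 0.87. In each case the VAT change was positive and called, and the SAT change was not called. Only the Lgals12 difference was called under every alternative tried.

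Of 164 sets of 4 libraries (41 members in 4 groups), 9 held a library far from the other 3 by Dixon's criterion, and chance gives such a library in about 1 set of 20. WT SAT replicate 3 was high for Cfd (6.54 CPM, the others 3.30 to 3.65) and low for Scd1 (124 CPM, the others 135 to 137). WT VAT replicate 3 was high for Cfd (10.2 CPM, the others 6.14 to 6.24) and for Pck1 (3.52 CPM, the others 1.43 to 1.73). WT SAT replicate 2 was high for Cd36 at 592 CPM, the others 376 to 399, and WT SAT replicate 4 low for Plin2 at 162 CPM, the others 208 to 217. WT VAT replicate 2 was low for Cidec (4.85 CPM, the others 6.87 to 7.18). KO VAT replicate 3 was low for Lpl at 2210 CPM, the others 2650 to 2730, and KO VAT replicate 2 was high for Scd1 at 218 CPM, the others 159 to 165.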

How the results depend on the processing

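Of the 14 members that rose in KO VAT, 11 were called under every alternative; Cidec, Dgat1 and Retn were not. The same held for 0 of 3 members in SAT, 8 of 13 between WT depots, 20 of 27 between KO depots and 1 of 6 for the difference of KO effects. Leaving out each library in turn gave 0 to 5 members lower and 0 to 1 higher in SAT (the 1 without KO VAT replicate 2), 11 to 17 higher and 0 lower in VAT, 4 to 8 higher and 6 to 8 lower between WT depots (the 8 higher without KO VAT replicate 3), 20 to 25 higher and 2 to 3 lower between KO depots, 1 to 14 for the difference of KO effects, and 0 to 2 for covariation.

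DESeq2 called 5 members lower in SAT and 18 for the difference of KO effects; over all genes it called 1710 against 992 in SAT, 1248 against 690 in VAT and 563 against 45 for the difference. The SAT libraries alone gave 1 member lower, and 509 genes in all. With no filter 2 members covaried with Adipoq, and 0 did with Plin1 in its place. Other size factors changed no count of members by more than 1. The cause was not tested.

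Deviations of same-numbered libraries had small correlations over genes, from -0.16 to 0.16, and from -0.04 to 0.13 between the depots of a genotype. Some libraries correlated best with their own number and others did not. Correlations this small cannot show whether same-numbered libraries share an animal or a batch. With the replicate block, 2 members were called for the difference of KO effects and 0 for covariation. Over all genes, 14 were called there for the difference of KO effects. With the block by genotype 9 members were higher between WT depots. In that fit 2 members were called for the difference of KO effects, and 11 genes in all. That block also called Cidec (adjusted p = 0.0255) and Cfd (0.000612) higher in WT VAT.

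Signs that changed when a library was left out were all of uncalled genes. Over these fits the change in SAT ran from -0.12 to 0.19 for Cd36, -0.14 to 0.20 for Cidec, -0.05 to 0.24 for Plin1, -0.47 to 0.07 for Cfd and -0.28 to 0.08 for Adipoq. In VAT it ran from -0.42 to 0.14 for Cfd, -0.08 to 0.51 for Lep and -0.21 to 0.04 for Cd36. The difference of KO effects ran from -0.21 to 0.39 for Cfd and -0.26 to 0.05 for Cd36.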
